A study of Mus musculus with 6 samples.

Results

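The genes described here are 3 glutathione transferases (Gstm1, Gstm2 and Gsta4), 3 enzymes of glutathione synthesis and recycling (Gclc, Gclm and Gsr), the transcription factor NRF2 (gene symbol Nfe2l2) and 3 of its oxidoreductase targets (Hmox1, Nqo1 and Txnrd1). They were selected by name from results already known for these arrays, so the differences between the groups are given as a description of the 10 genes and not as independent evidence about them. All 10 genes had at least 1 probe set that names no other gene, 17 probe sets in all, out of 12393 genes and 22626 probe sets measured.

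RNA was measured in muscle from 3 TFEB KO and 3 wild-type (WT) C57BL/6 mice aged 1 month, with 1 Affymetrix array of biotin-labelled cRNA per mouse. TFEB is a transcription factor of lysosome biogenesis and autophagy, and in the KO mice floxed Tcfeb alleles (the older symbol of Tfeb) were deleted in muscle fibers by a Cre recombinase driven by MLC1f, so cells of the tissue other than fibers keep the gene. The sources used here do not name the muscle taken, nor say whether the WT mice carried the floxed alleles. The values are log2 RMA values, 1 per probe set and array, and all differences are TFEB KO minus WT on the log2 scale.

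NRF2 is held in the cytoplasm and sent for degradation by KEAP1 until electrophiles or oxidants modify KEAP1, after which NRF2 enters the nucleus, pairs with a small Maf protein and binds antioxidant response elements. Its known targets include the enzymes that make glutathione, the tripeptide thiol of the cytosol, the reductases that return glutathione and thioredoxin to their reduced forms, and glutathione transferases, which couple glutathione to reactive compounds. In skeletal muscle these enzymes handle the oxidants and lipid aldehydes that mitochondria and contraction produce.

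Tfeb, the deleted gene, read 7.10, 7.23 and 7.04 in the TFEB KO arrays and 8.61, 8.55 and 8.96 in the WT arrays. It fell by 1.58 on the log2 scale (2.99-fold, standard error 0.13, limma adjusted p = 0.0079). The sources used here do not say whether its single probe set lies in the deleted part. Fiber genes marked the tissue as skeletal muscle in every array, with 12 of 12 measured and a median difference of 0.015. Their mean level was 14.38 to 14.42 in TFEB KO arrays and 14.38 to 14.41 in WT arrays. That is near the brightest value of all, 14.93, where a difference can be understated, so equal fiber content is not shown. Over all probe sets, 170 were higher and 191 were lower in TFEB KO muscle at an adjusted p under 0.05, which is 1.60% of those tested, and the arrays correlated at 0.992 to 0.9967 within groups and at 0.9889 to 0.9934 between them. Markers of other cells of the tissue differed as well, with 10 of 18 macrophage markers higher and 5 of 10 endothelial markers lower. In tissue RNA, fewer cells of a type and less RNA per cell cannot be told apart.

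The name NRF2 needs care in this study, which spells it out as nuclear respiratory factor 2, a name for the factor whose DNA-binding subunit is encoded by Gabpa. For this reason the sequences shown are the sites that the study lists for TFEB under the name NRF2 and the bases before the start sites of Nfe2l2 itself, of Gclm and of Gstm2. The sites listed as NRF2 lie on chromosome 2, as Nfe2l2 does, whereas Gabpa lies on chromosome 16. The start site that their listed positions imply is 1 base from the RefSeq start of Nfe2l2, so the listed promoter is that of Nfe2l2. By chromatin immunoprecipitation, the study reports recruitment of TFEB to the promoters it calls NRF1 and NRF2, in muscle that overexpresses TFEB. It also reports higher NRF2 mRNA in TFEB-transfected muscle. The sites listed as NRF2 are printed with the letters that match CANNTG, the general form of an E-box, in capitals.
NRF2 site P1: agggCACTTGatct
NRF2 site P2: gtctCATGTGatgg
Below are the 250 bases before the start site in RefSeq windows of build GRCm38.p6, for Nfe2l2 at chr2:75704664-75704913 on the minus strand, for Gclm at chr3:122245307-122245556 on the plus strand and for Gstm2 at chr3:107986421-107986670 on the minus strand. Capitals mark TGACNNNGC, the core of the antioxidant response element, on either strand.
Nfe2l2: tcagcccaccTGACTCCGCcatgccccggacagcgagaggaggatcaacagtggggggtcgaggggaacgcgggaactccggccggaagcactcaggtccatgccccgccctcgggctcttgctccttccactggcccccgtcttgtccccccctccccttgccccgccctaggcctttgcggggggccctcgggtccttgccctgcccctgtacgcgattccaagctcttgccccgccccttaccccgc
Gclm: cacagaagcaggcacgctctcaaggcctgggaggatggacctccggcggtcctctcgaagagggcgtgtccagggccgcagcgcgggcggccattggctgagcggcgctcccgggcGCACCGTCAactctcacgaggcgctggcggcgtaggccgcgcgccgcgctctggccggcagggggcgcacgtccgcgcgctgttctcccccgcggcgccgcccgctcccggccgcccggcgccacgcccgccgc
Gstm2: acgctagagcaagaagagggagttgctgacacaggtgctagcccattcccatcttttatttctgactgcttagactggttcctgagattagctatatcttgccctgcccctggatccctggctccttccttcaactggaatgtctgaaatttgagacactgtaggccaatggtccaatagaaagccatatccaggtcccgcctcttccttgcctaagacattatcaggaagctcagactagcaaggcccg
Nfe2l2 holds 1 match, TGACTCCGC, which begins 240 bases before the start, and Gclm holds 1 on the minus strand, GCACCGTCA as printed, which begins 134 bases before it. Gstm2 holds 0 matches. Windows of 300 bases, 250 before and 50 after the start, were searched on both strands for 6 of the 10 genes, 9 windows in all, and the third gene with a match was Txnrd1 in 1 of its windows (GCTTTGTCA, beginning 92 bases before the start). Of all 32851 windows, 12.4% hold this core. CACGTG, the E-box of TFEB, was found in 0 of the 9 windows and in 7.15% of all windows. The sites that the study lists under NRF2 hold CACTTG and CATGTG, so a search for CACGTG alone could not find such sites. A match shows only that the letters are there, and the lack of one only that they are not in these windows.

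The 3 glutathione transferases all lay lower in TFEB KO muscle, while the other 7 genes lay above 0 on their brightest probe sets. Of the 17 probe sets, 1 was lower and 0 were higher at an adjusted p under 0.05 from limma, against 0.844% of all probe sets called lower (1.60% in either direction). At an unadjusted p under 0.05 there were 11, against 17.2% of all probe sets. The groups did not overlap in 8 of the 17, against 23.0% of all probe sets. The median difference over the 10 genes was 0.17, beside -0.014 over all genes.

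**Figure D1:**
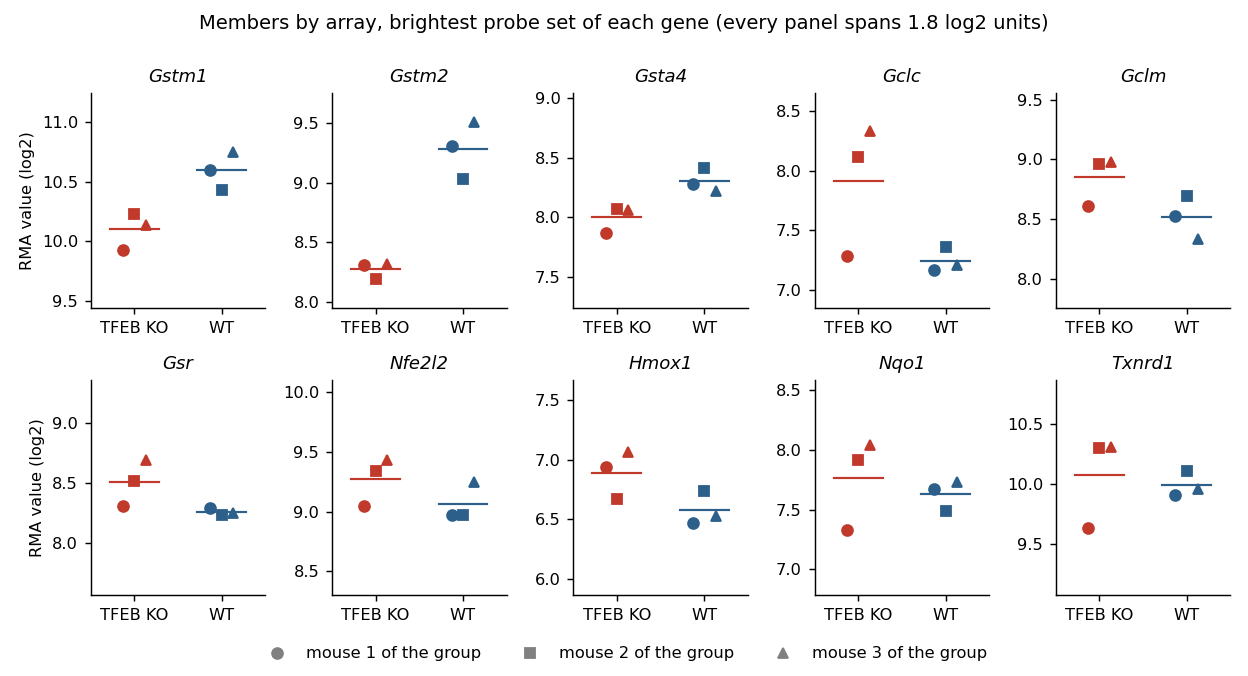
RMA value (log2, vertical axis) of each of the 10 genes on its brightest probe set, with 1 point per mouse for 3 TFEB KO (left) and 3 WT (right) arrays and a bar at the group mean. The TFEB KO arrays of Gstm2 lie between 8.19 and 8.32, below all WT arrays, and those of Gclc lie between 7.29 and 8.33.

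Gstm2, a mu class transferase, showed the largest difference of the 10 genes and was the one that passed the test. It read 8.31, 8.19 and 8.32 in TFEB KO arrays and 9.31, 9.03 and 9.51 in WT arrays. The TFEB KO arrays lay close together, and each was lower than any WT array. The means were 8.28 ± 0.07 in TFEB KO and 9.29 ± 0.24 in WT muscle (SD, n = 3 mice each). Gstm2 fell by 1.01 on the log2 scale (2.01-fold, 95% interval -1.31 to -0.72, adjusted p = 0.017 from limma), and the exact two-sided permutation test gave p = 0.10, the smallest that 3 arrays against 3 allow. The call was lost without WT 1 (adjusted p = 0.076 from limma) and without TFEB KO 2 (adjusted p = 0.062 from limma).

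Gstm1, another mu class enzyme whose gene also lies on chromosome 3, is read by 4 probe sets, all with differences below 0. The brightest (1416416_x_at) read 9.93, 10.23 and 10.14 in TFEB KO arrays and 10.60, 10.43 and 10.75 in WT arrays. Its groups did not overlap, though only 0.20 separated the highest TFEB KO array from the lowest WT array. The difference was -0.49 (95% interval -0.76 to -0.22, adjusted p = 0.089 from limma). The next brightest (1448330_at) was at -0.52 (interval -0.84 to -0.21) and a dimmer one (1425626_at) at -0.27 (interval -0.52 to -0.02), both with no overlap. The fourth, 1425627_x_at, had TFEB KO arrays at 7.97, 8.18 and 8.33 and WT arrays at 8.43, 8.08 and 8.72, and here TFEB KO 2 and 3 lay above WT 2 (difference -0.25, interval -0.64 to 0.13). Affymetrix gives the suffix x to probe sets that may also bind related transcripts, which matters in a family as alike as the mu class.

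Gsta4, an alpha class enzyme that couples glutathione to hydroxynonenal, an aldehyde of lipid peroxidation, read 7.87, 8.07 and 8.06 in TFEB KO arrays and 8.28, 8.41 and 8.22 in WT arrays. All TFEB KO arrays were lower than all WT arrays. The difference was -0.30 (interval -0.53 to -0.07, adjusted p = 0.18 from limma), or 1.23-fold.

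The other 5 mu class genes measured did not show a difference of the size of that of Gstm2 (-1.01). The intervals of Gstm3 (-0.36 to 0.10) and of Gstm6 and Gstm7 (-0.31 to 0.12 each) took in the -0.30 of Gsta4. Gstm3 was at -0.13, Gstm4 at 0.024, Gstm5 at 0.073, Gstm6 at -0.10 and Gstm7 at -0.10, and their intervals together ran from -0.36 to 0.28 with overlapping groups in each. Gstm6 and Gstm7 were dim, at mean levels of 4.92 and 5.62 over the 6 arrays, where a difference can be understated. Endothelial markers were lower in the same arrays as the 3 transferases, with 10 of 10 below 0 and a mean level of 7.06 to 7.21 in TFEB KO arrays and 7.63 to 7.83 in WT arrays. Of 7 smooth muscle and pericyte markers 6 were below 0 and 2 were lower (median -0.53), and of 6 Schwann cell markers 6 were below 0 and 1 was lower (median -0.34). The list of fibroblast, tendon and cartilage markers was mixed. The tendon and cartilage genes Tnmd, Fmod, Comp and Col9a1 were lower and the fibroblast genes Pdgfra, Dcn, Lum and Thy1 were above 0 (4 of 11 each). The fibroblast collagens Col1a1 (-0.82) and Col1a2 (-0.74) and the tendon gene Scx (-0.016) were below 0, so the list did not part by cell type. Among the fibroblast genes 0 passed the test, and Scx did not pass. Slow fiber genes, listed together with the fast oxidative myosin Myh2, were at a median of -0.69 with 8 of 8 below 0 and 0 past the test. Their mean level was 11.38, 11.79 and 11.76 in TFEB KO arrays and 12.66, 12.79 and 11.73 in WT arrays. On that mean WT 3 lay within the TFEB KO range. The groups did not overlap in 4 of the 8 genes, against 23.8% of all genes. The part of these cells and fibers in the transferase values was not tested.

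**Figure D2:**
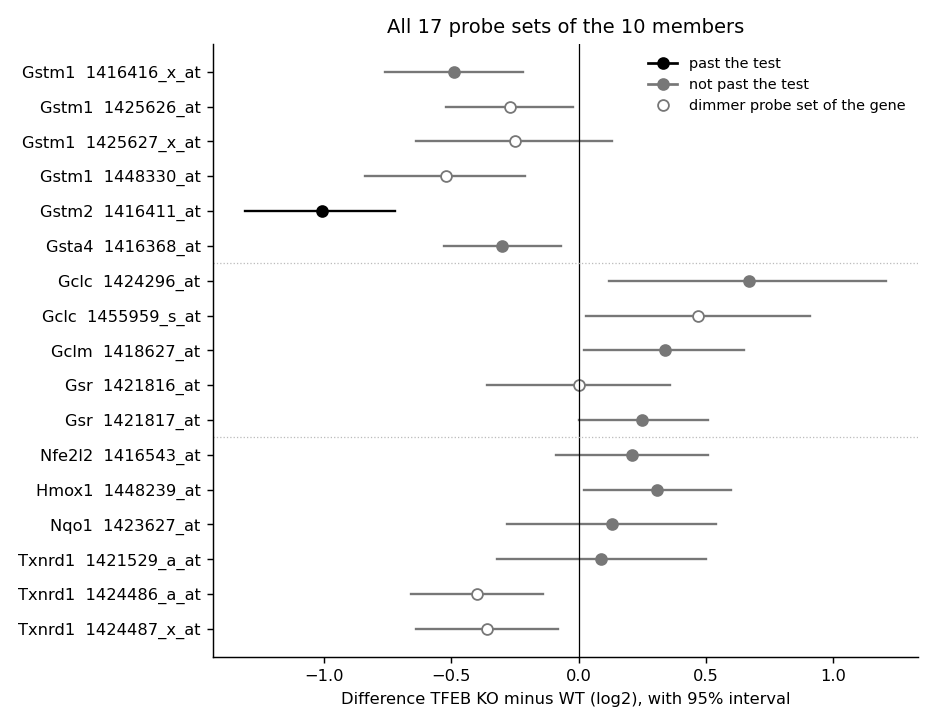
Difference TFEB KO minus WT (log2, horizontal axis) of all 17 probe sets, with its 95% interval from limma; open points are dimmer probe sets of a gene and dotted lines part the 3 groups of genes. Gstm2 at -1.01 is the one probe set past the test, and the 3 probe sets of Txnrd1 lie at 0.089, -0.40 and -0.36.

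Genes of glutathione synthesis and recycling lay on the other side of 0, with 0 of 3 past the test and the TFEB KO arrays at odds with one another. Gclc, the catalytic subunit of glutamate-cysteine ligase, which makes the first and limiting step of glutathione synthesis, read 7.29, 8.12 and 8.33 in TFEB KO arrays and 7.17, 7.36 and 7.21 in WT arrays. TFEB KO 2 and 3 were higher than every WT array, whereas TFEB KO 1 lay between WT 3 and WT 2. The SD was accordingly 0.55 in TFEB KO and 0.10 in WT muscle, and the difference of 0.67 had an interval of 0.12 to 1.21 (adjusted p = 0.20 from limma). On its other probe set TFEB KO 2 and 3 were again higher than every WT array and TFEB KO 1 was not, with 7.33, 8.11 and 7.86 in TFEB KO arrays and 7.18, 7.50 and 7.22 in WT arrays (difference 0.47, interval 0.03 to 0.91).

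Gclm, the modifier subunit of the same ligase, read 8.61, 8.96 and 8.98 in TFEB KO arrays and 8.53, 8.69 and 8.33 in WT arrays. Again TFEB KO 2 and 3 were above all WT arrays and TFEB KO 1 was not. The difference was 0.34 (interval 0.02 to 0.65, adjusted p = 0.26 from limma). Gsr, which uses NADPH to reduce oxidised glutathione, read 8.31, 8.52 and 8.69 in TFEB KO arrays and 8.29, 8.23 and 8.25 in WT arrays on its brightest probe set. The groups did not overlap, by the margin of 0.02 between TFEB KO 1 and WT 1 (difference 0.25, adjusted p = 0.30 from limma). Its dimmer probe set had a difference of 0.00072 (interval -0.36 to 0.36), with TFEB KO 1 the lowest array at 7.86 and TFEB KO 2 the highest at 8.52.

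Nfe2l2 itself read 9.05, 9.34 and 9.43 in TFEB KO arrays and 8.97, 8.97 and 9.25 in WT arrays. TFEB KO 1 lay below WT 3, so the groups overlapped. The difference was 0.21 (interval -0.09 to 0.51, adjusted p = 0.46 from limma), an interval that takes in 0. Gabpa, the gene that the spelled-out name of NRF2 points to, was at 0.073 and 0.038 on its 2 probe sets (adjusted p = 0.84 and 0.91 from limma). Nrf1 was at -0.13 on the brightest of 3 (adjusted p = 0.64 from limma).

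Hmox1, which breaks down heme, read 6.94, 6.67 and 7.06 in TFEB KO arrays and 6.47, 6.74 and 6.53 in WT arrays. TFEB KO 1 and 3 were above all WT arrays and TFEB KO 2 lay below WT 2 (difference 0.31, interval 0.02 to 0.60, adjusted p = 0.26 from limma). Macrophages, which take up and degrade heme, had markers at a mean level of 8.49, 7.89 and 7.90 in TFEB KO arrays and 7.24, 7.01 and 6.61 in WT arrays, and their part in the Hmox1 values was not tested.

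Nqo1, a quinone reductase, read 7.33, 7.92 and 8.04 in TFEB KO arrays and 7.67, 7.49 and 7.73 in WT arrays. TFEB KO 1 was the lowest of the 6 arrays, while TFEB KO 2 and 3 were the highest. The difference of 0.13 thus averaged arrays on both sides of the WT range (interval -0.28 to 0.54, adjusted p = 0.77 from limma).

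Txnrd1, the cytosolic thioredoxin reductase, is a selenoprotein read by 3 probe sets that did not share a direction. The brightest (1421529_a_at) read 9.63, 10.30 and 10.31 in TFEB KO arrays and 9.91, 10.11 and 9.96 in WT arrays. As for Nqo1, TFEB KO 1 was the lowest array and TFEB KO 2 and 3 were the highest (difference 0.089, interval -0.32 to 0.50). The second (1424486_a_at) read 6.67, 6.89 and 7.03 in TFEB KO arrays and 7.33, 7.24 and 7.22 in WT arrays. Here every TFEB KO array was lower than every WT array (difference -0.40, interval -0.66 to -0.14, adjusted p = 0.12 from limma). The third (1424487_x_at) had the same order, with 5.61, 5.71 and 5.59 in TFEB KO arrays and 6.09, 6.14 and 5.75 in WT arrays (difference -0.36, adjusted p = 0.18 from limma). Which transcripts of Txnrd1 each probe set reads was not examined, and the mean of the 3 was at -0.22.

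The split of TFEB KO 1 from TFEB KO 2 and 3 recurred in Gclc, Gclm, Gsr, Nfe2l2, Nqo1 and Txnrd1 on their brightest probe sets. Hmox1 did not share it, at 0.36, 0.09 and 0.48 against the WT mean in TFEB KO 1, 2 and 3. Against the WT mean, the median of Gclc, Gclm and Gsr was 0.05 in TFEB KO 1, 0.44 in TFEB KO 2 and 0.47 in TFEB KO 3, and that of Nfe2l2, Hmox1, Nqo1 and Txnrd1 was -0.16, 0.28 and 0.39. For the 3 transferases it was -0.66, -0.36 and -0.45, so all TFEB KO arrays were on one side. Gstm2 was the most even, at -0.97, -1.09 and -0.97. Adipocyte markers stood out in TFEB KO 1 too, with a median of 1.52 above the WT mean there, against -0.06 and 0.03 in TFEB KO 2 and 3, and so did macrophage markers, with medians of 1.52, 0.87 and 0.92. Their part in the values of that array was not tested.

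**Figure D3:**
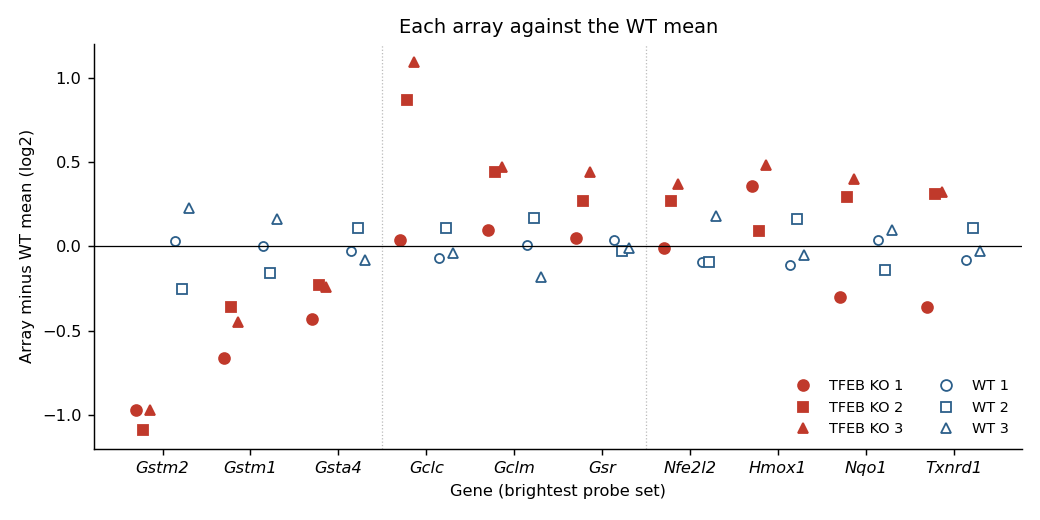
Each array minus the mean of the 3 WT arrays (log2, vertical axis) for the brightest probe set of each gene, with filled points for TFEB KO and open points for WT mice. In Gclc, TFEB KO 2 and 3 lie at 0.87 and 1.09 and TFEB KO 1 at 0.04, while all TFEB KO arrays of Gstm2 lie between -1.09 and -0.97.

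With TFEB KO 1 left out, Gclc was called higher, at 0.98 (standard error 0.12, adjusted p = 0.015 from limma), in a fit that called 1.94% of all probe sets. Its other probe set was at 0.69 (adjusted p = 0.056 from limma). The differences of Gclm (0.45), Gsr (0.35), Nfe2l2 (0.32), Nqo1 (0.35) and Txnrd1 (0.31 on its brightest probe set) were larger than with all arrays but did not pass (adjusted p = 0.12 to 0.23 from limma), that of Hmox1 was 0.29, and that of Gstm2 was -1.03 (adjusted p = 0.027 from limma). With another TFEB KO array left out, Gclc was smaller, at 0.56 without TFEB KO 2 and 0.46 without TFEB KO 3 (adjusted p = 0.34 and 0.41 from limma). Without TFEB KO 3, Gclm was at 0.27, Gsr at 0.16, Nfe2l2 at 0.13 and Hmox1 at 0.22, and Nqo1 and Txnrd1 were at -0.0074 and -0.026. TFEB KO 1 was the lowest TFEB KO array of Gclc, so leaving it out was bound to raise that difference. The call of Gclc without it is therefore not separate evidence of a rise. Nothing in the labels sets TFEB KO 1 apart, and the values with all 6 arrays are the ones to be read first.

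Among other genes of the same pathways, from 5 lists of 90 genes of which 75 were measured, 1 was higher and 1 was lower on the brightest probe set, against 1.57% of all 12393 genes called. Their median difference was 0.024, with 42 above and 33 below 0, and the groups did not overlap in 22 of the 75, against 23.8% of all genes. At an unadjusted p under 0.05 there were 19, against 17.1% of all genes.

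Mgst1, a microsomal glutathione transferase of the endoplasmic reticulum and outer mitochondrial membrane, rose where the soluble Gstm2 fell. It read 11.85, 11.52 and 11.58 in TFEB KO arrays and 11.10, 11.04 and 10.74 in WT arrays. All TFEB KO arrays were higher than all WT arrays (difference 0.69, interval 0.39 to 0.99, adjusted p = 0.048 from limma). The call was lost with any 1 array left out (adjusted p = 0.069 to 0.13 from limma), and a dimmer probe set, at 3.23 to 3.33 in TFEB KO and 3.17 to 3.41 in WT arrays, had a difference of 0.017. Gstt2, a theta class transferase, read 5.93, 5.87 and 5.83 in TFEB KO arrays and 6.20, 6.41 and 6.53 in WT arrays, without overlap (difference -0.51, adjusted p = 0.061 from limma). Of the 17 other transferases measured, 11 were below 0 and their median was -0.032.

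Ephx1, the microsomal epoxide hydrolase and an NRF2 target in liver, fell by 0.63 on the log2 scale (interval -0.88 to -0.38, adjusted p = 0.040 from limma). It read 7.87, 7.77 and 7.67 in TFEB KO arrays and 8.50, 8.22 and 8.47 in WT arrays. The groups were clear of each other, and the call held without TFEB KO 1 (adjusted p = 0.041 from limma) and was lost without any other single array (adjusted p = 0.066 to 0.16 from limma). Osgin1, an oxidative stress-induced NRF2 target, read 7.84, 8.40 and 8.31 in TFEB KO arrays and 7.50, 7.51 and 7.80 in WT arrays. TFEB KO 1 cleared the highest WT array by 0.05 (difference 0.58, adjusted p = 0.12 from limma). Over the 17 other NRF2 targets measured, 9 were above and 8 below 0, with a median of 0.00056.

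Among the regulators and partners of NRF2, 9 of 11 were above 0 and 0 passed the test (2 at an unadjusted p under 0.05), with a median of 0.11. Bach1, a repressor that competes with NRF2 for the same elements and is released from them by heme, read 9.15, 9.68 and 9.77 in TFEB KO arrays and 8.79, 8.95 and 8.86 in WT arrays. All TFEB KO arrays were higher, TFEB KO 2 and 3 by more than TFEB KO 1 (difference 0.67, interval 0.31 to 1.04, adjusted p = 0.083 from limma). Its dimmer probe set was at 0.70 (interval -0.38 to 1.79), with only TFEB KO 3, at 7.07, standing clear of the rest. Mafg, a small Maf partner, was at 0.35 on its brightest probe set and 0.46 on its dimmer one (adjusted p = 0.16 and 0.24 from limma). Keap1 was at 0.12 (interval -0.16 to 0.40).

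Without TFEB KO 1, Bach1 (0.86, adjusted p = 0.015), Osgin1 (0.75, adjusted p = 0.036) and Srxn1 (0.78, adjusted p = 0.040), which repairs oxidised peroxiredoxins, were called higher by limma. TFEB KO 1 was the lowest TFEB KO array in each of these genes, so leaving it out was bound to raise their differences. The calls are therefore not separate evidence of a rise. With any other single array left out, 0 genes of the other redox lists were called higher. Those fits called only 17 to 53 of all 22626 probe sets higher, against 235 without TFEB KO 1. The 0 is therefore not a result about these genes. Srxn1 read 8.04, 8.68 and 8.70 in TFEB KO arrays and 8.11, 7.93 and 7.69 in WT arrays. It thus had the same split as Gclc, with TFEB KO 1 inside the WT range and TFEB KO 2 and 3 above it. The 17 other NRF2 targets, Srxn1 among them, did not have it as a list. Their medians against the WT mean were 0.24, 0.03 and 0.02 in TFEB KO 1, 2 and 3. The list of NRF2 regulators and partners had it, at -0.06, 0.19 and 0.22, and the remaining redox lists did not. Srxn1 and Keap1 were named after their values were seen.

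In the remaining lists 0 genes passed. Of 17 other genes of glutathione metabolism (4 at an unadjusted p under 0.05), with a median of 0.093, Oplah, the oxoprolinase that recovers glutamate, was at -0.41 and the cytosolic peroxidase Gpx1 at 0.31 (adjusted p = 0.16 and 0.20 from limma), both without overlap. Of 13 thioredoxin, peroxiredoxin and superoxide enzymes (2 at an unadjusted p under 0.05), with a median of 0.11, the methionine sulfoxide reductase Msrb1 was at 0.47 and the thioredoxin reductase Txnrd3 at 0.39 (adjusted p = 0.15 and 0.18 from limma). Other probe sets of Txnrd3 were at 0.10 and 0.19.

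**Figure D4:**
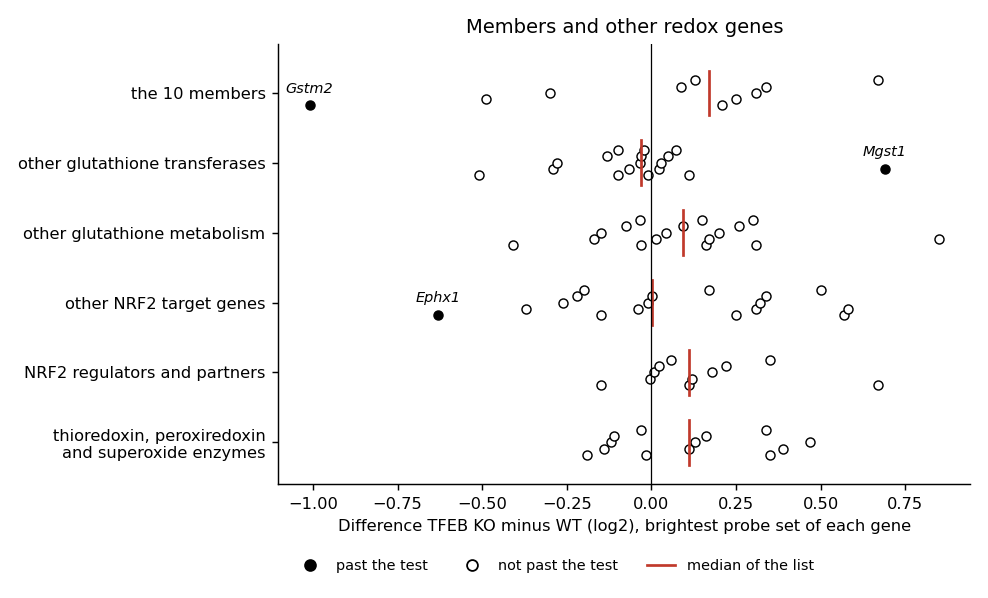
Difference TFEB KO minus WT (log2, horizontal axis) on the brightest probe set of each gene, for the 10 genes and 5 lists of related genes, with 1 point per gene, filled where past the test, and a red bar at the median. Gstm2 (-1.01) and Ephx1 (-0.63) are past the test on the left and Mgst1 (0.69) on the right.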

How the data were processed

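Total RNA from the muscle of 3 TFEB KO and 3 WT mice was hybridised to Affymetrix arrays, 1 per mouse, which the labels call biological replicates. The deposited values are log2 values that the authors made with RMA and the R package affy, as the submitters' processing notes name them. The sources used here give no versions. RMA subtracts background, equalises the arrays and merges the probes of each set, so it would hide most of a shift common to all genes. The arrays give no depth, and their number limits the precision.

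Of 22690 probe sets, 64 controls were left out. The platform annotation named 1 gene for 20380 of the others, several for 691 and none for 1555. Of the 20380, 20364 matched a RefSeq gene by Entrez ID, and 0 symbols changed. A gene is given by the probe set with the highest mean over the 6 arrays, and dimmer ones are named as such. The test was the linear model of limma 3.58.1 under R 4.3.3 (functions lmFit and eBayes), fitted over all 22626 probe sets, two-sided, with Benjamini-Hochberg adjustment and a threshold of 0.05 with no minimum fold. The fit was tested on simulated data. Tables and plots were made in Python 3.11.15 with NumPy 2.4.6, matplotlib 3.10.9 and pandas 2.3.3.

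The 10 genes and all lists were chosen with earlier results of these data known. All probe sets of the 10 genes are given. From the other redox lists the genes past the test were named, and from each the 2 with the largest difference among those whose groups do not overlap, while marker lists are given as counts and medians. Fibroblast, tendon and cartilage genes and Myh2 are named with their values already known. The other mu class genes were named as relatives of Gstm1 and Gstm2, after their values were seen. Promoter windows are those of RefSeq (GRCm38.p6), found for 6 of the 10 genes. The alternatives changed 1 choice each. For the values, they quantile-normalized the arrays once more, moved every array to a common 75th percentile, dropped probe sets below the 25th percentile of mean level, kept the controls or averaged all probe sets of a gene. For the fit, they used trended and robust moderation, weights for the arrays or the replicate number of the labels as a block. They also used Student's t-test or a threshold that asks for 1.5-fold as well, and left out each array once. The study names Student's t-test in its general statistics, and the sources used here name no test for these arrays.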

Additional observations from a re-analysis of the deposited data

How the results depend on the processing

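Gstm2 lay between -1.14 and -0.90 under all 16 alternatives. Its call was lost under 3 of them, without WT 1, without TFEB KO 2 and with Student's t-test after adjustment (adjusted p = 0.16). Of the differences of the 10 genes, those of Txnrd1 and Nqo1 changed sign. Txnrd1 was at -0.22 with the mean of all its probe sets, -0.022 without TFEB KO 2 and -0.026 without TFEB KO 3, and at most 0.31 with 1 array left out. Nqo1 ran from -0.0074 without TFEB KO 3 to 0.35 without TFEB KO 1.

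Over all probe sets, 17 to 235 were higher and 4 to 203 lower with 1 array left out. The counts were 296 lower with array weights and 127 lower at a minimum of 1.5-fold. They were 0 higher and 1 lower with Student's t-test adjusted for multiple tests, and 1338 higher and 1944 lower with it unadjusted. Of the 17 probe sets, 0 to 1 were higher and 0 to 1 lower with 1 array left out, 0 were lower with the adjusted t-test and 5 with the unadjusted one. Of the other redox genes, 0 to 3 were higher and 0 to 1 lower with 1 array left out. A second quantile normalization and the shift of the 75th percentile each left 0 higher (Mgst1 at adjusted p = 0.058 and 0.057 from limma). Array weights gave 2 higher, and the mean of all probe sets gave 0 higher and 2 lower. Student's t-test gave 0 higher and 0 lower after adjustment, and 9 and 5 without it. Tfeb stayed at -1.58 with that test (adjusted p = 0.13 after adjustment) and ran from -1.66 to -1.46 with 1 array left out. The cause of these changes was not tested, beyond the fewer arrays in a fit that leaves 1 out.

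The labels give replicate numbers and do not say that same-numbered arrays were paired. Their deviations from the group means correlated at 0.0876, 0.0477 and 0.265. TFEB KO 1 and 3 each correlated best with the WT array of the same number, and TFEB KO 2 with WT 1 (0.172). These values do not settle whether same-numbered arrays share more than a number. With the replicate block, 173 probe sets were higher and 124 lower, Gstm2 kept its call (adjusted p = 0.018 from limma), and 0 of the other redox genes were lower (Ephx1, adjusted p = 0.051 from limma).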
